A study of Mus musculus with 2 samples.

Results

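The genes studied were 9 genes of retinoic acid signalling: the synthetic enzymes Aldh1a1, Aldh1a2 and Aldh1a3, the degrading enzyme Cyp26b1, the binding proteins Crabp1 and Crabp2, and the receptors Rara, Rarb and Rarg. They were chosen by symbol and not by their levels, and all 9 were found among the 42462 genes of the tables that could be named. The samples were 2 mouse forebrains at embryonic day 14.5 (E14.5), labelled as biological replicates 1 and 2 of 1 group. The embryos were of strain B6NCrl, with no allele or treatment named in the labels, and came from different pregnancies collected on different days. The labels give the sex as pooled although each library is described as 1 forebrain. Each library was made from 10 ng of total RNA, size selected above 200 nt, and held 35310017 expected counts in replicate 1 and 29250404 in replicate 2. With no second group there is no treatment contrast, and p = 0.5 is the smallest value that an exact test could reach here. The comparisons were therefore between genes within each library and between the embryos, without a p-value, and errors are standard deviations over the libraries (n = 2).

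Retinoic acid is a small signalling molecule made from vitamin A. Retinol is first oxidised to retinaldehyde, which the Aldh1a enzymes turn into retinoic acid, and the Cyp26 enzymes remove it again. Crabp proteins carry retinoic acid in the cytoplasm, and in the nucleus it binds a retinoic acid receptor paired with a retinoid X receptor on DNA. In the embryonic mouse forebrain the meninges and the lateral ganglionic eminence, the source of the striatum, are known sites of its synthesis.

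Levels are given as TPM, a measure of transcript abundance corrected for length and scaled to the same sum in each library. In both forebrains the binding proteins were the most abundant of the 9 genes and Aldh1a1 the least. Aldh1a2 led the synthetic enzymes, Cyp26b1 the degrading enzymes, and Rarb the receptors. At a level of 1 TPM or more in both libraries, 8 of the 9 genes were detected, beside 59.6% of the 21461 nuclear protein-coding genes. The gene below that level was Aldh1a1. Every one of the 9 genes had whole expected counts in both libraries (tolerance 0.005), which gives no sign of reads divided with another gene. The check cannot show reads from bases that a neighbour's annotated model lacks, a limit taken up below for Rarb.

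**Figure D1:**
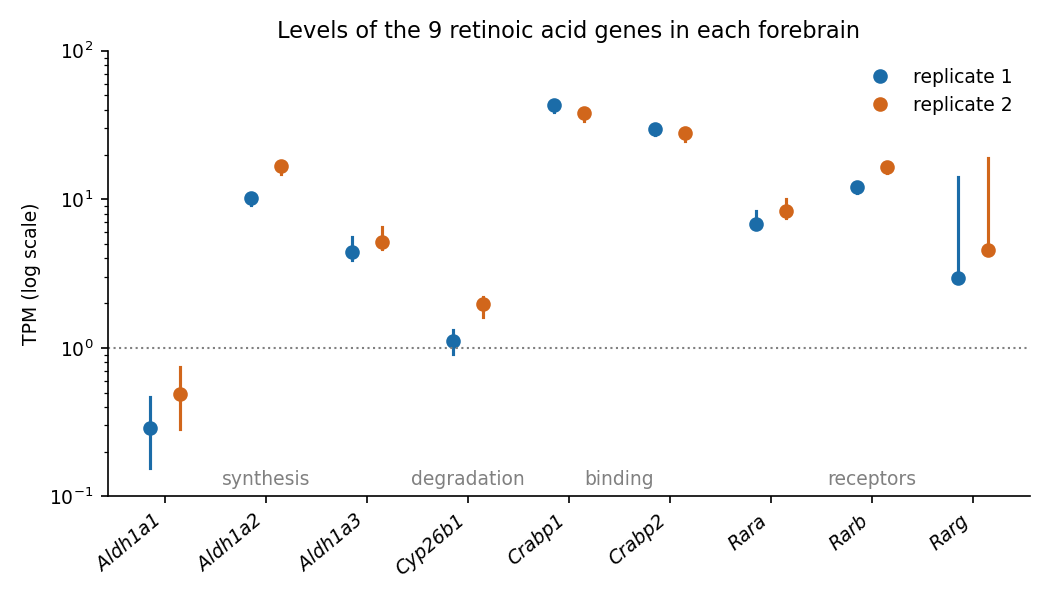
TPM of each gene on a log axis in replicate 1 (blue) and replicate 2 (orange), with the deposited TPM interval as a vertical line and a dotted line at 1 TPM. Crabp1 and Crabp2 lie highest in both forebrains, Aldh1a1 lies lowest and under 1 TPM, and the interval of Rarg reaches far above its TPM.

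The order by mean TPM was Crabp1, Crabp2, Rarb, Aldh1a2, Rara, Aldh1a3, Rarg, Cyp26b1 and Aldh1a1. Rarb and Aldh1a2 were not separated beyond the spread between the embryos, and neither were Aldh1a3 and Rarg. All other neighbours in this order kept apart, with the lower of the 2 values of one gene above the higher value of the next. Crabp1 lay above 81.7% of nuclear protein-coding genes, Rara above 56.4% and Aldh1a1 above 34.0%.

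Among the synthetic enzymes, Aldh1a2 was the most abundant in both forebrains. Aldh1a2 (ENSMUSG00000013584.5, GRCm38 chromosome 9, 71215789 to 71296243, plus strand), the main enzyme of retinoic acid synthesis in the early mouse embryo, was measured at 10.27 TPM (509 counts) in replicate 1 and 16.65 TPM (635 counts) in replicate 2. Its mean was 13.5 ± 4.51 TPM, and it supplied 68.6% and 74.8% of the summed TPM of the 3 enzymes. Aldh1a3 (ENSMUSG00000015134.10, chromosome 7, 66390890 to 66427517, minus strand), the enzyme known from the lateral ganglionic eminence and the ventral eye, was measured at 4.42 TPM (256 counts) and 5.13 TPM (218 counts), a mean of 4.78 ± 0.502 TPM. Aldh1a2 exceeded it by 1.46 ± 0.34 on the log2 scale, with intervals that lay apart in both forebrains.

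Aldh1a1 (ENSMUSG00000053279.6, chromosome 19, 20492715 to 20643465, plus strand), known from the dorsal eye and from midbrain dopamine neurons, had 0.29 TPM (13 counts) in replicate 1 and 0.49 TPM (17 counts) in replicate 2. These few counts give a deposited interval, of a level the files do not state, from 0.155 to 0.468 TPM in replicate 1 and from 0.285 to 0.742 TPM in replicate 2. Aldh1a2 exceeded Aldh1a1 by 5.12 ± 0.04 on the log2 scale, or 34.7-fold, and Aldh1a3 exceeded it by 3.66 ± 0.38. With 1 added to each TPM these log2 ratios were 3.35, or 10.2-fold, and 2.06. Aldh1a1 thus held 2.07% ± 0.187 of the family sum (14.98 TPM in replicate 1, 22.27 TPM in replicate 2).

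The tissue label was checked against 8 marker lists. All 6 markers of the cortex reached 1 TPM in both libraries, led by Neurod6, Neurod2 and Fezf2, and summed to 591.5 TPM in replicate 1 and 665.7 TPM in replicate 2. Markers of Cajal-Retzius cells summed to 139.6 and 169.0 TPM, those of the endothelium to 196.9 and 199.5 TPM and those of the choroid plexus to 816.9 and 827.2 TPM. Ttr alone made up 763.94 and 777.77 TPM of the choroid plexus sums. The 6 markers of midbrain dopamine neurons summed to 14.43 and 21.38 TPM, nearly all of it from Nr4a2 and Th.

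Markers of tissues in which these enzymes are known were measured in the same libraries, and their part in the levels was not tested. For Aldh1a2, 6 of the 8 markers of the meninges reached 1 TPM in both libraries, led by Col3a1, Dcn and Col1a2. The TPM of the 8 summed to 237.6 in replicate 1 and 327.5 in replicate 2. For Aldh1a3, the 9 markers of the striatum and lateral ganglionic eminence all reached 1 TPM in both libraries, summing to 332.6 and 413.3 TPM. The 5 markers of the retina and eye summed to 3.68 and 2.57 TPM. Only Six6, at 1.59 and 1.24 TPM, reached 1 TPM in both libraries, and Crx had a mean of 0.035 TPM. For Aldh1a1, the midbrain genes Pitx3 and En1 had means of 0.055 and 0.020 TPM, and none of these markers was at 0 in both libraries.

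Cyp26b1 was low but was almost the whole of the Cyp26 signal. Cyp26b1 (ENSMUSG00000063415.8, chromosome 6, 84571414 to 84593908, minus strand), which oxidises retinoic acid to inactive products, had 1.12 TPM (118 counts) and 1.96 TPM (159 counts), a mean of 1.54 ± 0.594 TPM. It held 96.3% ± 1.59 of the summed TPM of Cyp26a1, Cyp26b1 and Cyp26c1. The other two enzymes of this kind had 0 and 3 counts (Cyp26a1) and 1 and 0 counts (Cyp26c1) in replicates 1 and 2. Over both libraries, 277 counts of Cyp26b1 against 3 of Cyp26a1 gave a length-corrected ratio of 33.6 with a 95% counting interval from 11.4 to 163.9. Against the 1 count of Cyp26c1 the ratio was 99.2, with an interval from 17.7 to 3933. Exact binomial intervals of this kind cover counting error only. Both pooled ratios used the counts as they were. With values below 3 counts raised to that level, the mean log2 ratios gave 16.7-fold over Cyp26a1 and 16.3-fold over Cyp26c1.

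The binding proteins were the most abundant members and were lower in replicate 2 than in replicate 1. Crabp1 (ENSMUSG00000032291.8, chromosome 9, 54764748 to 54773110, plus strand), thought to hold retinoic acid in the cytoplasm and to aid its breakdown, had 43.01 TPM (692 counts) and 38.11 TPM (472 counts), a mean of 40.6 ± 3.46 TPM. Crabp2 (ENSMUSG00000004885.5, chromosome 3, 87948666 to 87953376, plus strand), which delivers retinoic acid to its receptors, had 29.89 TPM (569 counts) and 27.97 TPM (410 counts), a mean of 28.9 ± 1.36 TPM. Crabp1 exceeded Crabp2 by 0.49 ± 0.06 on the log2 scale, or 1.40-fold, and their intervals lay apart in both forebrains. Crabp1 held 58.3% ± 0.938 of the summed level of the pair. Fabp5, a fatty acid carrier that also binds retinoic acid, was far above both at 886.81 and 784.45 TPM.

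Of the receptors, Rarb was the highest and Rarg the lowest by TPM in each forebrain. Rarb (ENSMUSG00000017491.8, chromosome 14, 16430839 to 16819156, minus strand), a receptor known from the developing striatum and itself a target of retinoic acid, had 12.13 TPM (815 counts) and 16.51 TPM (854 counts), a mean of 14.3 ± 3.10 TPM. Rara (ENSMUSG00000037992.12, chromosome 11, 98927818 to 98974942, plus strand), the broadly expressed receptor, had 6.80 TPM (412 counts) and 8.32 TPM (387 counts), a mean of 7.56 ± 1.07 TPM. Rara lay below Rarb by a log2 ratio of -0.91 ± 0.11, a 1.88-fold difference, with intervals apart in both forebrains. Rarb made up 55.5% and 56.2% of the receptor sum, a mean of 55.9% ± 0.512.

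Rarg (ENSMUSG00000001288.10, chromosome 15, 102234938 to 102257517, minus strand), known mostly from cartilage and skin, had 2.93 TPM (178 counts) and 4.54 TPM (205 counts), a mean of 3.74 ± 1.14 TPM. Its log2 ratio was 1.96 ± 0.13 for Rarb over Rarg and 1.04 ± 0.24 for Rara over Rarg, but the deposited intervals overlapped in both cases. The interval of Rarg ran from 2.90 to 14.1 TPM in replicate 1 and from 4.35 to 19.0 TPM in replicate 2, around posterior means of 6.93 and 9.67 TPM. By the posterior mean, Rara over Rarg was -0.04 and Rarb over Rarg 0.75 on the log2 scale. The annotation gives Rarg a model of only 111 nt, Rarg-206, which had no reads. Without models under 200 nt, a choice made after seeing the data, the posterior means were 3.37 and 5.09 TPM. The summed intervals, 1.91 to 5.29 TPM and 3.05 to 7.67 TPM, then lay below those of Rarb in both libraries and below those of Rara in replicate 1 only.

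The value of Rarb carries a limit of position. In GENCODE M21, 1793 of the 3108 exonic bases of its model Rarb-201 (57.7%) overlap the last exon of Top2b on the opposite strand. Top2b, a DNA topoisomerase of neurons, had 111.7 and 122.75 TPM. The longest Top2b model in the deposited tables is 5660 nt, against 10335 nt in M21, and whether counting used the strand is not given in the sources used here. Reads from the long 3' end of Top2b therefore cannot be told apart from reads of Rarb, and their part in its level was not tested.

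**Figure D2:**
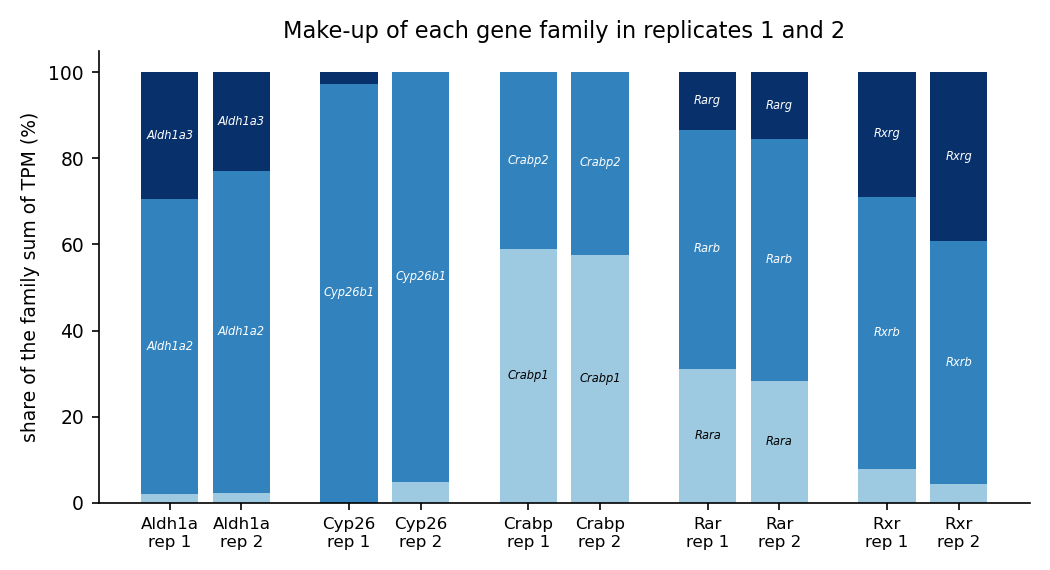
Share of each family's summed TPM (percent, bars from 0 to 100) held by each gene in replicates 1 and 2. Aldh1a2, Cyp26b1, Crabp1, Rarb and Rxrb lead their families in both forebrains.

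Of 12 gene pairs compared within these families and the retinoid X receptors, 10 had intervals apart in both forebrains in the same direction, and the remaining 2 were the Rarg pairs above. The retinoid X receptors, the DNA-binding partners of Rara, Rarb and Rarg, were led by Rxrb at 17.09 and 23.14 TPM. Rxrg had 7.80 and 16.03 TPM, and Rxra had 2.12 and 1.74 TPM. Rxra lay below Rxrb by a log2 ratio of -3.37 ± 0.51.

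The promoters of Rarb and Cyp26a1 are shown because both contain the same class of receptor element while their levels were far apart, and the promoter of Cyp26b1 because it is the degrading enzyme that was detected. Retinoic acid receptors bind pairs of short half-sites, and a direct repeat with 5 bases between them is called DR5. The half-sites searched, on either strand, were AGGTCA as well as AGTTCA, and also GGGTCA as well as GGTTCA, in RefSeq windows (GRCm38.p6) of 250 bases before to 50 after a gene's start. Capitals mark a DR5, and each sequence is written 5' to 3' on the strand of its gene. The windows are chr14:16575427-16575726 on the minus strand for Rarb, chr19:37697558-37697857 on the plus strand for Cyp26a1, and chr6:84593761-84594060 on the minus strand for Cyp26b1.
Rarb: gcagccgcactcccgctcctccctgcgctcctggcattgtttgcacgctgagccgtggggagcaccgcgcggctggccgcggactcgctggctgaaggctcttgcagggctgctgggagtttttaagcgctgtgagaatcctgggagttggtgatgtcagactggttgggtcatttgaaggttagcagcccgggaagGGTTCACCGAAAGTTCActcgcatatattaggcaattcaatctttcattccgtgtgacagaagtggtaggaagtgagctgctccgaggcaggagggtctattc
Cyp26a1: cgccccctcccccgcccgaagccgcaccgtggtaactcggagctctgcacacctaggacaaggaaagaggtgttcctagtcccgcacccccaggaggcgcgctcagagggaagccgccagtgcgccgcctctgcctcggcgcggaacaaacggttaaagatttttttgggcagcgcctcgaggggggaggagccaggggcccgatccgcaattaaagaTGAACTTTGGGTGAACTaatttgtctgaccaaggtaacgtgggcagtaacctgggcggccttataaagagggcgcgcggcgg
Cyp26b1: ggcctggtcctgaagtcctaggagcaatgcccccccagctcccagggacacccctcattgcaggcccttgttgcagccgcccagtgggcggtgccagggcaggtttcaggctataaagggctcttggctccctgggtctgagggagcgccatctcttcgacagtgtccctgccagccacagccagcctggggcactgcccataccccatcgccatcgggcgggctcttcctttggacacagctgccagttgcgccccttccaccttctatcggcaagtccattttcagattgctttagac

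In the Rarb window the DR5 runs from 53 to 37 bases before the start, as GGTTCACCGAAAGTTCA on the strand of the gene. In the Cyp26a1 window it runs from 32 to 16 bases before the start and reads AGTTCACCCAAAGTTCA on the strand opposite the gene. Counted from 1 at the 5' end of the repeat, with the Rarb base first, the elements differ by G1A and G9C and match at 15 of 17 bases. Response elements of this class are known from both promoters. In these forebrains Rarb had a mean of 14.3 TPM and Cyp26a1 a mean of 0.050 TPM, so genes with this repeat stood at very different levels.

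A DR5 was present in 32 of all 32851 promoter windows (0.0974%), a repeat with a spacing of 1 in 73 and with a spacing of 2 in 88. A single half-site, which any repeat also contains, was present in 43.7%. The table held 12 windows for 7 of the 9 genes, all except Aldh1a3 and Crabp2. Rarb had the only DR5 among them, none had the shorter spacings, and 7 of the 12 windows had no half-site. Of 12 nuclear protein-coding genes with a DR5 window in the tables, 7 (58.3%) had 1 TPM or more in both libraries, close to the 59.6% of all such genes. A match describes the letters of a window and not binding.

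The transcript tables divide each gene's signal among its annotated forms. The 9 genes had 26 transcript models, and in each gene all of the TPM lay in models annotated as protein-coding, in both libraries. Of the 9 genes, 6 had a single model with 10% or more of the gene's TPM. Aldh1a3, Rara and Rarg had several. A single model does not always mean a resolved form. For Cyp26b1 all of the TPM was assigned to ENSMUST00000168003.4, but the posterior means were 0.67 and 1.25 TPM for it and 0.44 and 0.67 TPM for ENSMUST00000077705.3, with intervals that overlapped in both libraries. How reads were divided among overlapping models is an estimate by the authors' program.

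For Rarg, the model that starts inside the gene dominated. Rarg-202, with a start at 102246500 and a coding sequence of 447 residues, held 83.4% of the gene's TPM in replicate 1 and 82.5% in replicate 2. Rarg-201, which starts upstream at 102257517 and encodes 458 residues, held 16.6% and 13.6%. Their intervals lay apart in both forebrains, at 1.85 to 2.93 TPM against 0.0619 to 0.836 TPM in replicate 1 and 2.99 to 4.41 TPM against 0.0487 to 0.964 TPM in replicate 2. The models share 1190 coding bases and differ in the first coding exon, which encodes the amino-terminal end of the receptor. The RefSeq window at the start of Rarg-202 had no half-site, and the window at Rarg-201 had 1.

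Rara showed no such dominance of 1 start. Models with upstream starts held 74.5% and 61.2% of its TPM, and those with any TPM all encode 462 residues. Rara-202, which starts inside the gene at 98960412 and encodes 459 residues, held 25.5% and 38.8%. Its level was 1.74 TPM (interval 0.994 to 2.42) in replicate 1 and 3.23 TPM (2.29 to 3.67) in replicate 2, and these intervals overlapped. Among the upstream models, Rara-203 held 35.9% and 31.0% and Rara-204 held 21.6% and 30.2%, and their intervals overlapped in both libraries. Rara-207, named after its values were seen, was at 17.0% in replicate 1 and at 0 in replicate 2.

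In Aldh1a3, a large share of the signal was assigned to models with a short coding sequence. The model ENSMUST00000015278.9, which encodes the whole enzyme of 512 residues, held 62.1% and 52.1%. The model ENSMUST00000174209.3, whose annotated coding sequence is 528 bases or 176 residues, held 20.2% and 47.9%. Its level was 0.90 TPM (interval 0.404 to 1.53) in replicate 1 and 2.46 TPM (1.68 to 3.03) in replicate 2, so these intervals lay apart. The model ENSMUST00000174215.1, named after its values were seen, has a coding sequence of the same length and went the other way, with 17.7% and 0. Together the 2 short-coding models held 37.9% and 48.0%. The full-length model was steadier, at 2.75 and 2.67 TPM.

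**Figure D3:**
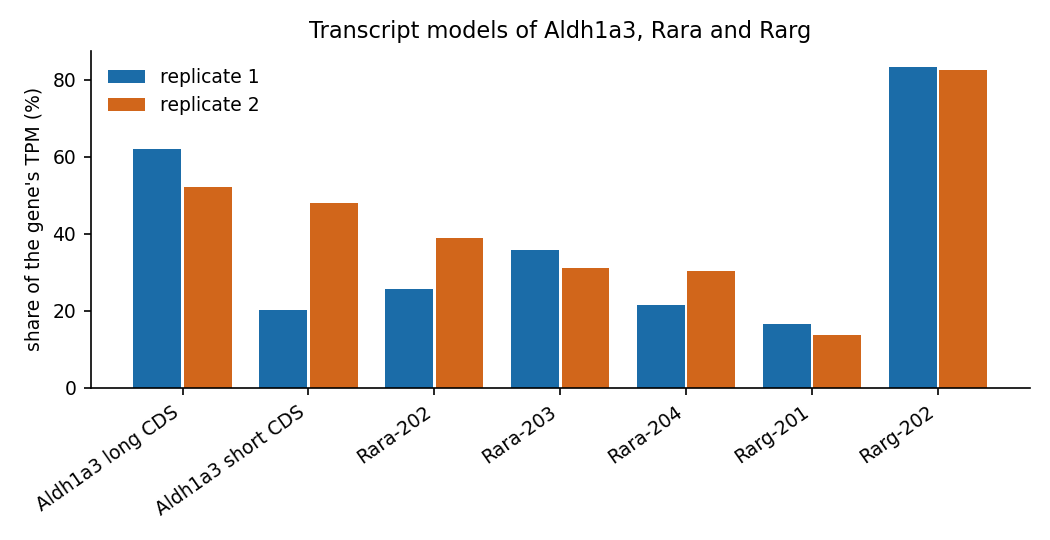
Share of the gene's TPM (percent, bars from 0) in each transcript model with a mean share of 10% or more (blue, replicate 1; orange, replicate 2), where long and short CDS are the Aldh1a3 models of 512 and 176 residues. Rarg-202 holds the largest share in both forebrains, whereas the models of Rara and Aldh1a3 are more even and vary more between the embryos.

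Between the embryos, 7 of the 9 genes were higher in replicate 2 and Crabp1 and Crabp2 were lower. Of the 10958 genes with a mean of 5 TPM or more, 72.4% were higher in replicate 2. The 7 of 9 is near that share, although only 5 of the 9 genes reach that mean of 5 TPM. A gene was counted as different when its mean reached that level, its ratio was 2-fold or more and its intervals lay apart. By that rule 50 of the 10958 genes differed (0.456%), 32 of them higher in replicate 2, and 0 of the 5 members with enough signal did. With the ratio taken from counts scaled by edgeR's TMM method, and the mean and intervals still those of TPM, 32 genes differed. The share of the called genes that was higher in replicate 2 went from 64.0% to 21.9%. At 1.5-fold, 609 genes differed (5.56%), among them 1 member, Aldh1a2, whose ratio was 1.43-fold with TMM-scaled counts and with DESeq2's size factors and so under 1.5-fold. In whole tissue, fewer cells of a type and less RNA per cell cannot be told apart.

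Aldh1a2 was 1.62-fold higher in replicate 2 by TPM, a log2 ratio of 0.70, while the median over the 10958 genes was 0.14. As a share of all counts it was 1.51-fold higher, with an exact 95% interval from 1.34 to 1.70 that covers counting error only. In the same direction, 7 of 8 meningeal markers were higher in replicate 2, beside 72.4% of the 10958 genes. Their summed TPM was 1.38 times that of replicate 1. Their median ratio was also 1.38, beside 1.105 over the 10958 genes. Other lists rose too, with 5 of 6 cortical and 4 of 6 Cajal-Retzius markers higher, against 2 of 5 for the choroid plexus and 1 of 5 for the eye. Over the 8 lists the ratio of sums ran from 0.698 (retina and eye) to 1.48 (midbrain dopamine neurons). The meningeal markers include genes with a mean under 5 TPM, unlike the 10958, and their part in the result was not tested.

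Below the level required, Cyp26b1 was 1.75-fold higher by TPM, Aldh1a1 1.69-fold and Rarg 1.55-fold. As shares of counts their ratios were 1.63 (1.27 to 2.08), 1.58 (0.722 to 3.53) and 1.39 (1.13 to 1.71), so for Aldh1a1 the counting interval included no difference. By TPM, Rarb was 1.36-fold higher, Rara 1.22-fold and Aldh1a3 1.16-fold. As shares of counts these were 1.265 (1.148 to 1.394), 1.134 (0.9845 to 1.306) and 1.028 (0.8541 to 1.236). For Rara and Aldh1a3, too, the counting interval included no difference. Crabp1 was at 0.886 times its level in replicate 1 and Crabp2 at 0.936 times, and as shares of counts these were 0.823 (0.731 to 0.927) and 0.870 (0.764 to 0.989). With TMM-scaled counts the sign of Aldh1a3 turned, from 0.21 to -0.03 on the log2 scale, and the other 8 kept theirs. Like Rarb, 8 of the 9 markers of the striatum and lateral ganglionic eminence were higher in replicate 2, beside 72.4% of the 10958 genes. The sum of the 9 was 1.24 times as large, and their part was not tested.

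**Figure D4:**
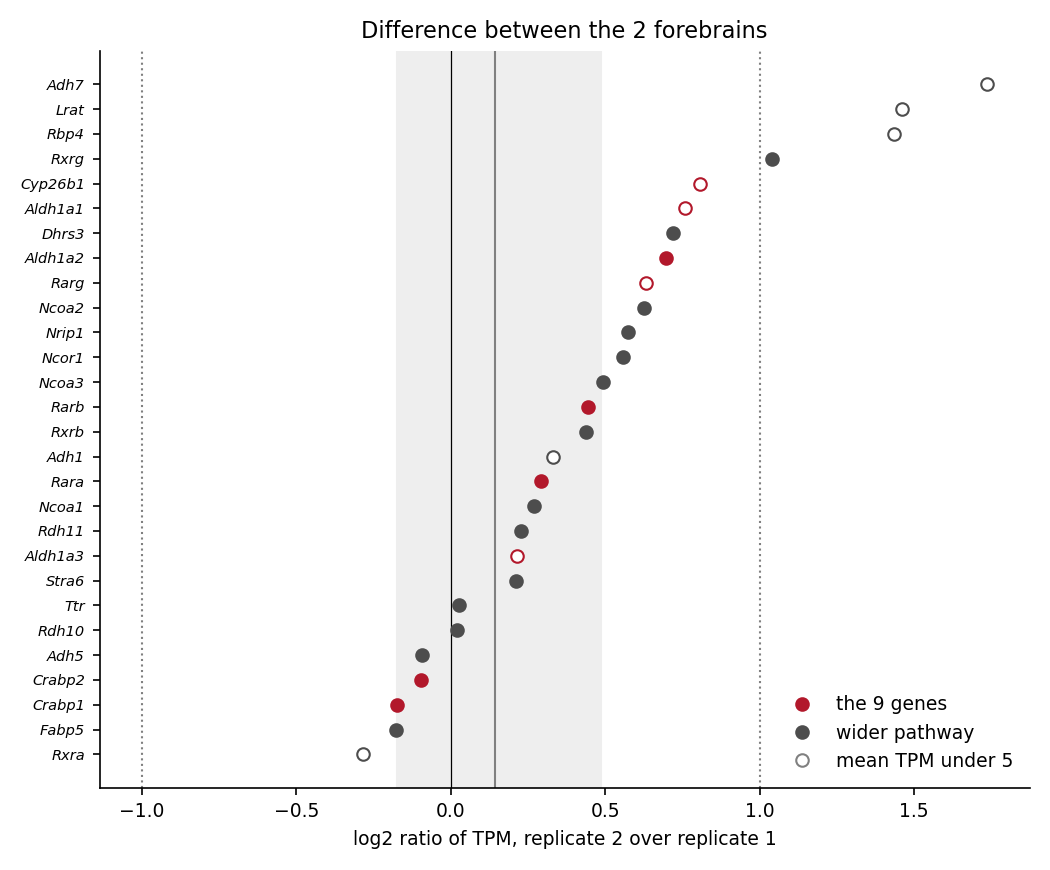
Log2 ratio of TPM, replicate 2 over replicate 1, for the 9 genes (red) and the wider pathway (grey). Open circles mark a mean under 5 TPM. A grey line marks the median of the 10958 genes with a mean of 5 TPM or more, with a band over their 10th to 90th percentile. Dotted lines mark 2-fold. Among the 9 genes Aldh1a2 is the only one with 5 TPM or more outside the band, and Rxrg is the only filled circle beyond 2-fold.

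The wider pathway list held 24 further genes, of which 17 reached 1 TPM in both libraries, beside 59.6% of nuclear protein-coding genes. In uptake and transport, levels differed widely. Ttr, the plasma carrier of retinol-binding protein and a marker of the choroid plexus, had 763.94 and 777.77 TPM. Stra6, the cell-surface retinol receptor, had 8.19 and 9.49 TPM. Rbp4, the plasma retinol-binding protein, had 0.68 and 1.84 TPM. Lrat, which stores retinol as esters, had 5 and 10 counts, and Bco1, which cleaves beta-carotene, had 0 and 4 counts.

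Of the enzymes between retinol and retinaldehyde, Rdh10, which makes retinaldehyde in the embryo, had 7.00 and 7.10 TPM. Dhrs3, which turns retinaldehyde back into retinol, had 13.25 and 21.80 TPM, and Rdh11 had 29.43 and 34.44 TPM. The alcohol dehydrogenase Adh5 had 262.75 and 246.59 TPM, whereas Adh1 and Adh7 stayed below 1 TPM in both libraries.

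All 6 co-regulators of the receptors were above 5 TPM in both forebrains. All 6 were higher in replicate 2, beside 72.4% of the 10958 genes with a mean of 5 TPM or more. The co-repressor Ncor1 was the highest at 77.99 and 114.65 TPM. The co-activators Ncoa1, Ncoa2 and Ncoa3 had 9.44 and 11.39, 12.70 and 19.59, and 7.71 and 10.84 TPM. Nrip1, which represses ligand-bound receptors, had 12.64 and 18.79 TPM.

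By the 2-fold rule, 1 of the 16 pathway genes with enough signal differed between the embryos, namely Rxrg, beside 0.456% of all genes. At 1.5-fold there were 3, Rxrg, Dhrs3 and Ncoa2, all higher in replicate 2, beside 5.56% of all genes. With TMM-scaled counts Rxrg was 1.76-fold higher and so under 2-fold, and Dhrs3 at 1.34-fold and Ncoa2 at 1.22-fold were under 1.5-fold. DESeq2's size factors gave 1.75-fold, 1.34-fold and 1.21-fold. The 21 pathway genes with counts in both libraries had a median log2 ratio of 0.44 and the 9 genes one of 0.44, beside 0.14 over the 10958 genes. With TMM-scaled counts these medians were 0.26 and 0.27, beside -0.04. The 21 and the 9 include genes with a mean under 5 TPM and the 10958 do not, so these sets are not alike.

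**Figure D5:**
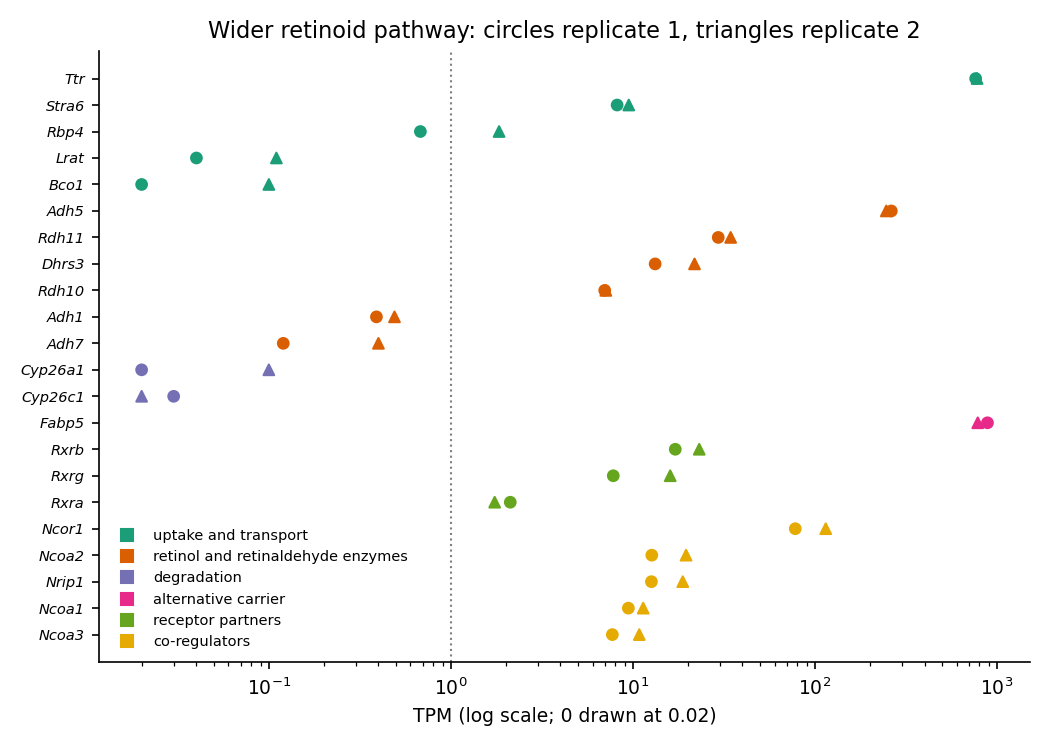
TPM on a log axis of further pathway genes in replicate 1 (circles) and replicate 2 (triangles), coloured by role, with values of 0 drawn at the left edge and a dotted line at 1 TPM. The co-regulators and retinoid X receptors all lie above 1 TPM, and Cyp26a1 and Cyp26c1 lie far below it.

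Of 11 genes known to respond to retinoic acid, 8 had 1 TPM or more in both libraries, beside 59.6% of nuclear protein-coding genes. Of these 11, 2 are members and 3 stand in the pathway list. Of the others, the homeobox genes Meis2 and Meis1 had 82.90 and 95.78 TPM and 16.99 and 16.59 TPM. Meis2 is also among the markers of the striatum and lateral ganglionic eminence. Tgm2, a transglutaminase, had 4.14 and 5.94 TPM, and Zfp503, a zinc finger protein of the striatum, had 3.66 and 3.90 TPM. The hindbrain gene Hoxb1 had 0 counts in both libraries. Up to 3 counts can be missed at this depth, equal to 0.131 TPM (replicate 1) or 0.170 TPM (replicate 2) for an effective length of 1 kb.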

How the data were processed

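Total RNA of 2 mouse forebrains was measured by RNA-seq, and the labels place both in 1 group. Per the file headers, the authors deposited expected counts, TPM and FPKM per gene and transcript, posterior means with TPM intervals whose level is not stated, and each transcript's percent of its gene. Per the files' notes, the annotation was GENCODE M4 on mm10. The aligner, the quantification program and strand use are not given in the sources used here. Posterior mean counts and other deposited columns served as checks and alternatives.

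Gene IDs without version were matched to GENCODE M21 on the same assembly, which named 42462 of 43346 Ensembl genes (98.0%) and gave coordinates and coding sequences. Levels were compared as TPM without a pseudocount. For the log2 ratios of gene pairs, values below 3 counts were raised to that floor, which is also the upper limit taken for a count of 0. No floor was used for ratios of pooled counts, ratios between the embryos or ratios with 1 added to TPM. Exact binomial intervals (95%, scipy 1.17.1) compare shares of counts. edgeR 4.0.16 (TMM) and DESeq2 1.42.0 (size factors) only rescaled the expected counts, rounded to whole numbers. No gene-wise test was run. The labels tie each library to a separate embryo, and both carry the same donor entry.

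The rule for embryo differences and the counting interval were tested on simulated data. The simulated counts held counting error only, with intervals computed from those counts. Spread between embryos and the deposited intervals were therefore not covered. The 9 genes, the pathway, responsive and marker lists, and the rules were chosen with earlier results of these data known. The genes named were the 9, all of the pathway and responsive lists, the 3 highest markers of a list or those with a mean under 0.1 TPM, and transcripts with a mean share of 10% or more. A few genes of these lists are not reported here by name or drawn, while counts, sums and medians cover the whole lists. Promoter sequences are from RefSeq (GRCm38.p6). Alternatives were FPKM, posterior means, protein-coding transcripts, counts, other thresholds and scalings, and each library alone.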

Additional observations from a re-analysis of the deposited data

How the results depend on the processing

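Of the 9 genes, 5 had 5 TPM or more in both libraries. The 50 genes that differed between the embryos became 609 at 1.5-fold, 181 at a mean of 1 TPM, 419 with no filter on low values, 93 without the intervals, 32 with TMM-scaled counts, 33 with DESeq2's size factors and 34 with 1 added to TPM. The count of members among them was 1 at 1.5-fold and 0 under the other settings. TMM, size factors and the added 1 changed only the ratio, while the mean and intervals stayed those of TPM. With counts not divided by length, the share of Cyp26b1 was 98.7%, that of Crabp1 54.2% and that of Rarb 58.5%. In either library alone these shares ranged from 95.2% to 97.4%, 57.7% to 59.0% and 55.5% to 56.2%. The share of Aldh1a2 ranged from 68.6% to 74.8% and that of Rxrb from 56.6% to 63.3%. Each library alone gave 8 genes at 1 TPM and 10 separated pairs, and FPKM gave 7 genes. Without the Rarg models under 200 nt, chosen after seeing the data, 11 pairs were separated. The sign of a pair's log2 ratio was kept in 71 of 72 recalculations, all but Rara over Rarg by the posterior mean. Of the 72, 18 moved by more than the SD of the libraries. Part of this was fixed in advance. Values from 1 library alone cannot move by more than that SD. Every pair had the same sign in both libraries, so neither these values nor those with 1 added to TPM could change sign. The cause of these shifts was not tested. No paired analysis was possible because there is 1 group. With 1 embryo per library, differences between them have no replicate, and for Aldh1a1, Cyp26a1 and Cyp26c1 the counts limit what can be detected.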
